A study of Mus musculus with 27 samples.

Results

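The microRNAs described here are those encoded inside the mouse Hox gene clusters, miR-10a, miR-10b, miR-196a, miR-196b and miR-615. They were chosen by name, as every row of the microRNA tables whose mature name was 1 of 9 listed names, which gave 10 loci of 2035 because miR-196a-5p has 2 loci. The study grew mouse CJ7 embryonic stem (ES) cells, in serum with leukemia inhibitory factor, as wild-type cells and as lines that were Eed-/-, Ezh2-/- or Jarid2-/-. The mutants share the CJ7 background with the wild-type cells, and the number of clones per genotype is not given in the sources used here. Of 27 samples listed for the series, 7 are small RNA samples, of which Jarid2-/- has 1 and each other genotype has 2, and the deposited microRNA counts hold 1 column per genotype. The column taken as wild-type carries the name of the parental line and no mutant gene, which makes it the least direct of the 4 assignments. With 1 value per genotype no test between genotypes was possible, and none of the differences below has a replicate check. Ranges in parentheses are exact 95% intervals of counting error alone, since PCR copies without molecular identifiers are not separate molecules.

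Eed and Ezh2 are core subunits of Polycomb repressive complex 2 (PRC2), which methylates histone H3 at lysine 27, and Jarid2 is an accessory subunit that helps place the complex on its targets. The Hox clusters are the classic PRC2 targets of ES cells, held silent until the body axis is patterned. The microRNAs within them are transcribed together with the neighbouring Hox genes in the posterior embryo and feed back on Hox messenger RNAs. The best known case is miR-196, which directs the cleavage of Hoxb8 messenger RNA in the mouse, and in human cells miR-10b represses HOXD10.

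The 6 hairpins lie in all 4 Hox clusters. In the RefSeq annotation of GRCm38.p6, used for names and neighbours only, Mir10a lies between Hoxb5 and Hoxb4 within the annotated span of Hoxb3, and Mir10b lies within the spans of Hoxd3 and Hoxd4. Mir196a-1 lies between Hoxb13 and Hoxb9, Mir196a-2 between Hoxc10 and Hoxc9, Mir196b between Hoxa9 and Hoxa10, and Mir615 within Hoxc5. Positions below are those of the deposited tables, read as build mm9, on the plus strand except for miR-196b, which is on the minus strand. MiR-10a-5p is at chr11:96178500-96178522, miR-10b-5p at chr2:74564131-74564153 and miR-196b-5p at chr6:52180128-52180149. The sequence of miR-196a-5p occurs at chr11:96126501-96126522 and at chr15:102803796-102803817. MiR-615-3p is at chr15:102845400-102845421.

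The mature sequences are shown because the members fall into families by their seed, the bases 2 to 8 that pair with target messenger RNAs, which are in capitals. All 10 member loci had the same mature sequence in RefSeq.
mmu-miR-10a-5p: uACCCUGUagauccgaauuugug
mmu-miR-10b-5p: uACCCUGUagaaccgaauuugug
mmu-miR-196a-5p: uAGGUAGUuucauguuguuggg
mmu-miR-196b-5p: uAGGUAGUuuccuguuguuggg
mmu-miR-615-3p: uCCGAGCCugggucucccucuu

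MiR-10a-5p and miR-10b-5p share their seed with each other and with 0 further names in the tables, and so do miR-196a-5p and miR-196b-5p. Counted from the 5′ end, miR-10a-5p differs from miR-10b-5p by U12A alone, and miR-196a-5p differs from miR-196b-5p by A12C alone. The rule by which the authors assigned reads between such relatives is not given in the sources used here. A sequencing error at that base could move a read from one row to the other, and this was not tested.

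The microRNA counts of a column summed to 23793733 in wild-type cells and 42293019 in Eed-/-, and to 32074712 in Ezh2-/- and 8485806 in Jarid2-/-. Levels are given as CPM, a count scaled to a column total of 1000000 microRNA counts, and a count of 0 allowed a level of up to 0.126, 0.0709, 0.0935 and 0.354 CPM in that order, taken as 3 counts. ES cell microRNAs of the miR-290 and miR-302 clusters, 11 loci with none at 0, summed to between 299699 CPM (Jarid2-/-) and 393686 CPM (Ezh2-/-). A locus was assessed when 1 of the 2 columns compared had at least 10 counts, and was called when its level, with 1 CPM added to both values, differed at least 2-fold. The added 1 CPM understates the differences of low loci, so folds are given without it. The 2 loci of miR-196a-5p have the same sequence and nearly the same counts in each column. They enter every count of loci below as 2 rows but are not separate measurements.

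In wild-type ES cells the Hox cluster microRNAs were present at low to moderate levels, and miR-196a-5p stood above the rest. MiR-196a-5p had 1923 counts at its chromosome 11 locus and 1928 at its chromosome 15 locus, which is 80.8 CPM (77.2 to 84.5) and 81.0 CPM (77.5 to 84.7). MiR-10b-5p had 361 counts, 15.2 CPM (13.6 to 16.8), and miR-196b-5p had 346, 14.5 CPM (13.1 to 16.2), so their intervals overlapped. MiR-10a-5p was lower, with 208 counts and 8.74 CPM (7.59 to 10.0). MiR-615-3p had 20 counts, and the remaining members, miR-10a-3p, miR-10b-3p, miR-196b-3p and miR-615-5p, had between 1 and 4. These mature sequences are 22 or 23 bases long, so no length correction was made. How efficiently each sequence entered a library was not measured, so this order, and the orders given below for the mutants, are orders of CPM.

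**Figure D1:**
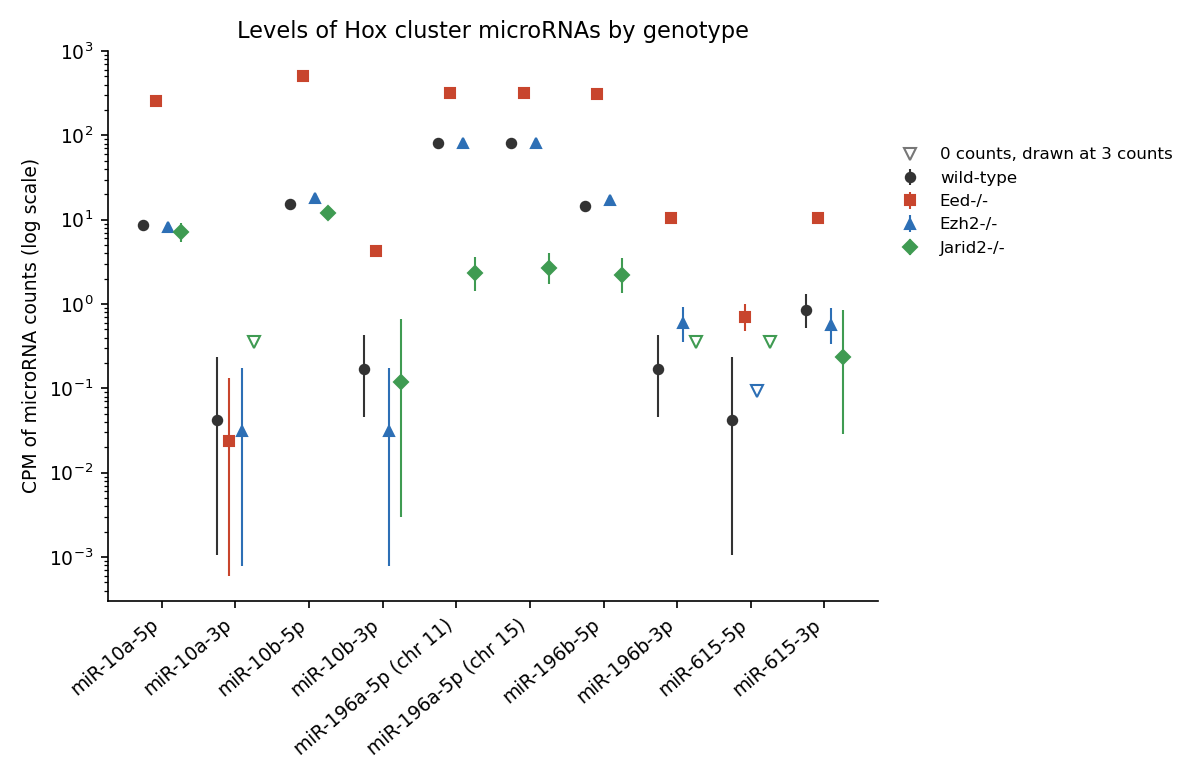
Level of each of the 10 member loci in each genotype, in CPM on a log axis, with exact 95% counting intervals as bars (hidden by the symbol where narrow); open triangles mark 0 counts, drawn at 3 counts. The Eed-/- squares lie above the other genotypes at 9 of 10 loci, up to 503 CPM for miR-10b-5p, and the Jarid2-/- diamonds of miR-196a-5p and miR-196b-5p lie below 3 CPM.

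In Eed-/- cells, microRNAs of every Hox cluster were higher than in wild-type. Of the 10 member loci 9 were assessed, and 8 of the 9 were at least 2-fold higher and 0 lower, where 17.5% of all 1096 assessed loci were higher, 15% lower and 32.5% either. Of the 9, 3 (miR-10b-3p, miR-196b-3p and miR-615-5p) reached 10 counts in the Eed-/- column alone, where they were high, so their being assessed is not independent of the difference. Of the 6 with at least 10 counts in wild-type, 6 were called higher, where 19% of the 940 loci with such a wild-type count were, a filter chosen after the data were seen. MiR-10b-5p of the HoxD cluster had 21285 counts, 503 CPM (497 to 510.1), which was 33.2-fold higher (29.9 to 36.9). MiR-10a-5p of the HoxB cluster had 10816 counts, 256 CPM (251 to 261), which was 29.3-fold higher (25.5 to 33.7). MiR-196b-5p of the HoxA cluster had 13047 counts, 308 CPM (303 to 314), which was 21.2-fold higher (19.1 to 23.7). Ordered by log2 ratio among the assessed loci, these were numbers 4, 6 and 7 from the top. MiR-615-3p of the HoxC cluster had 444 counts, 10.5 CPM (9.54 to 11.5), which was 12.5-fold higher (7.99 to 20.6).

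MiR-196a-5p, the most abundant member in wild-type, had the smallest fold among the 8. It had 13596 counts at chromosome 11 and 13643 at chromosome 15, 321 and 323 CPM, which were 3.98-fold higher (3.79 to 4.17) and 3.98-fold higher (3.80 to 4.18). Its interval did not overlap those of miR-10a-5p, miR-10b-5p and miR-196b-5p. The levels of these microRNAs were therefore closer together in Eed-/- than in wild-type, with miR-10b-5p first, miR-196a-5p next, then miR-196b-5p and miR-10a-5p, and no 2 of these names had overlapping intervals.

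Of the low arms, miR-196b-3p and miR-10b-3p were called higher in Eed-/- as well. MiR-196b-3p had 442 counts against 4 and miR-10b-3p had 181 against 4, a level 62.2-fold (24.1 to 229) and 25.5-fold (9.77 to 94.4) higher. MiR-615-5p had 30 counts against 1, a ratio of 16.9 (2.81 to 689) without the added 1 CPM, but its log2 ratio with it was 0.71 and it was not called. MiR-10a-3p stayed at 1 count in both columns and was not assessed. The median log2 ratio was 3.48 over the 6 members with at least 10 counts in wild-type, beside -0.03 over the 940 such loci. Over the 9 assessed loci, which include the 3 that passed through Eed-/- alone, it was 2.64, beside 0.08 over all assessed loci. The 8 called loci were also called under 4 other scalings: TMM and median-ratio factors, which set typical loci equal, the denominators of the authors' scaled reads (RPM), and a total without the large miR-290 and Gtl2-Rian-Mirg clusters. The same scalings moved the calls over all loci from 192 higher and 164 lower to 130 and 194 (median-ratio) or 350 and 106 (RPM denominators).

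**Figure D2:**
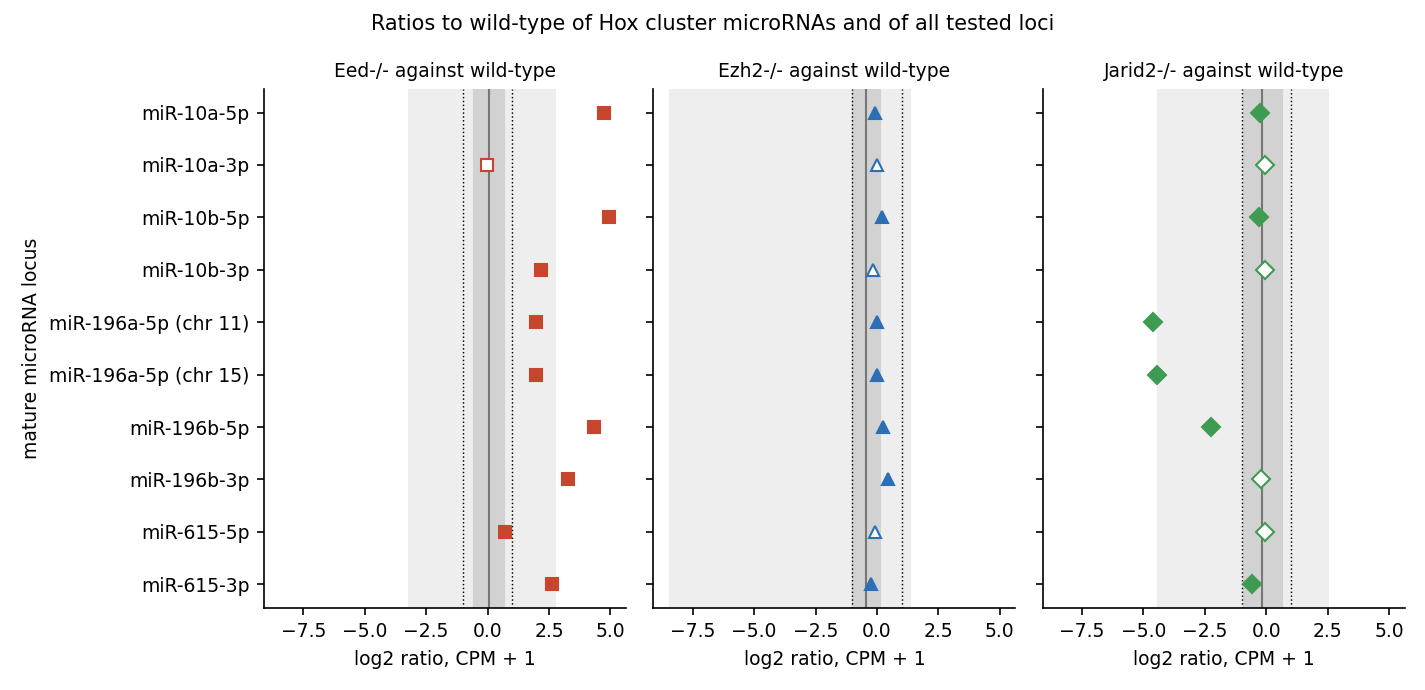
Log2 ratio of each mutant to wild-type (CPM + 1) for the 10 member loci; filled symbols were assessed and open symbols had fewer than 10 counts in both columns. Light and dark bands hold the central 95% and the interquartile range of all assessed loci, the grey line is their median, and dotted lines mark 2-fold. In Eed-/- 8 filled symbols lie right of the upper dotted line, in Ezh2-/- all lie between the dotted lines, and in Jarid2-/- both miR-196a-5p loci and miR-196b-5p lie left of the lower one.

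In Ezh2-/- cells the Hox cluster microRNAs were close to their wild-type levels. Of 7 assessed member loci, 0 passed 2-fold in either direction, where 4.9% of all 1000 assessed loci were higher, 24.5% lower and 29.4% either. The loci of miR-196a-5p had 2585 and 2580 counts, 80.6 and 80.4 CPM, with ratios to wild-type of 0.997 (0.940 to 1.06) and 0.993 (0.935 to 1.05). MiR-10a-5p had 263 counts and 8.20 CPM, a ratio of 0.938 (0.779 to 1.13). MiR-10b-5p had 573 counts and 17.9 CPM, 1.18-fold higher (1.03 to 1.35), and miR-196b-5p had 556 counts and 17.3 CPM, 1.19-fold higher (1.04 to 1.37).

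The other members were low in Ezh2-/- as well. MiR-615-3p had 18 counts against 20, a ratio of 0.668 (0.333 to 1.33), and miR-10a-3p, miR-10b-3p and miR-615-5p had 1, 1 and 0 counts. MiR-196b-3p had 19 counts against 4, a level 3.52-fold higher (1.17 to 14.2), which the added 1 CPM kept below the threshold. The median log2 ratio of the 7 assessed members was -0.00, beside -0.44 over all assessed loci. TMM scaling moved the latter to 0.09 and the split over all loci from 49 higher and 245 lower to 144 and 163, while median-ratio scaling gave 110 and 189 and the RPM denominators 93 and 185. Over the 5 scalings the log2 ratio ran from -0.08 to 0.58 for miR-10a-5p, from 0.22 to 0.92 for miR-10b-5p, from -0.00 to 0.72 for miR-196a-5p at chromosome 11 and from 0.24 to 0.93 for miR-196b-5p. The sign for miR-10a-5p and miR-196a-5p thus depended on the scaling, and none of the 4 reached 2-fold.

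In Jarid2-/- cells the miR-196 family was lower than in wild-type and the miR-10 family was not called. Of 6 assessed member loci, 3 were at least 2-fold lower and 0 higher, where 22.8% of all 950 assessed loci were lower, 16.3% higher and 39.2% either. The 3 include both loci of the miR-196a-5p sequence, which are not separate measurements. At chromosome 11 miR-196a-5p had 20 counts, 2.36 CPM (1.44 to 3.64), which was 34.3-fold lower (22.1 to 56.3), and 23 counts at chromosome 15, 2.71 CPM (1.72 to 4.07), which was 29.9-fold lower (19.9 to 47.3). MiR-196b-5p had 19 counts, 2.24 CPM (1.35 to 3.50), a level 6.49-fold below wild-type (4.10 to 10.9). The 3 calls held under each of the 5 scalings.

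MiR-10a-5p had 61 counts in Jarid2-/-, 7.19 CPM (5.50 to 9.23), which was 1.22-fold lower (0.910 to 1.65). The related miR-10b-5p, with 102 counts, stood at 12.02 CPM (9.80 to 14.6), which was 1.26-fold lower (1.01 to 1.59). With the RPM denominators the log2 ratios of both became positive, at 0.19 and 0.15. The intervals of the folds of the miR-10 and miR-196 5p arms did not overlap, and miR-10b-5p took the place of miR-196a-5p as the highest member. The levels of miR-196a-5p and miR-196b-5p could not be told apart in this column. MiR-615-3p had 2 counts against 20, 3.57-fold lower (0.866 to 31.5), miR-10b-3p had 1, and miR-10a-3p, miR-196b-3p and miR-615-5p had 0. At this depth a wild-type level of 4 counts or fewer could not have been told from 0. The median log2 ratio of the 6 assessed members was -1.42, beside -0.17 over all assessed loci. With the RPM denominators the split over all loci moved from 155 higher and 217 lower to 253 and 176.

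The mutants were also compared directly, which in CPM does not use the wild-type column. The TMM and median-ratio factors were computed over the columns of every genotype, wild-type included. Of 9 assessed members, 8 were at least 2-fold higher in Eed-/- than in Ezh2-/-, where 35.7% of all 1091 assessed loci were higher, 4.58% lower and 40.3% either. Of the 9, 2 had 10 counts in the Eed-/- column alone. MiR-10a-5p was 31.2-fold (27.6 to 35.4), miR-10b-5p 28.2-fold (25.9 to 30.7), miR-196b-5p 17.8-fold (16.3 to 19.4) and miR-615-3p 18.7-fold (11.7 to 31.9) higher. MiR-615-5p, with 30 counts against 0, was at least 7.58-fold higher at a floor of 3 counts, but was not called. Over all loci the split of 390 higher and 50 lower became 240 and 188 with TMM and 272 and 160 with median-ratio factors. Among the called members the smallest log2 ratio, that of miR-196a-5p at chromosome 11, stayed between 1.14 and 2.25 over the 5 scalings.

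Between Jarid2-/- and Eed-/- 8 of 9 assessed members were at least 2-fold lower in Jarid2-/-, where 18.9% of 1073 assessed loci were lower, 7.18% higher and 26.1% either. Of these 9, 4 had 10 counts in the Eed-/- column alone. The lowest 3 log2 ratios of all 1073 loci were those of miR-196a-5p at chromosome 11, miR-196b-5p and miR-196a-5p at chromosome 15. In level, miR-196a-5p was 136-fold lower at chromosome 11, with a lower bound of 88.3, and 119-fold lower at chromosome 15 (79.3 to 188). For miR-196b-5p the level was 138-fold lower (88.2 to 229). MiR-10a-5p was 35.6-fold (27.7 to 46.5) and miR-10b-5p 41.9-fold (34.5 to 51.4) lower, and miR-196b-3p, with 0 counts against 442, was at least 29.6-fold lower. Between Jarid2-/- and Ezh2-/- 3 of 7 assessed members were lower, where 8.92% of 930 loci were lower, 33% higher and 41.9% either, so that the members' share in either direction, 42.9%, was near that of all loci. These 3 were both miR-196a-5p loci, at 34.2-fold (22.1 to 56.1) and 29.7-fold (19.7 to 46.9), and miR-196b-5p, at 7.74-fold (4.91 to 13.0), and they were called under each scaling. MiR-10b-5p was called lower under 2 of the 5 scalings, with log2 ratios from -1.25 to -0.49. Over all loci the split of 307 higher and 83 lower became 219 and 201 with TMM and 231 and 180 with median-ratio factors.

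The balance between family members does not depend on scaling. MiR-10a-5p made up 36.6% (32.6 to 40.7%) of the counts of miR-10a-5p and miR-10b-5p in wild-type and 33.7% (33.2 to 34.2%) in Eed-/-. Ezh2-/- had a share of 31.5% (28.3 to 34.7%), and Jarid2-/- one of 37.4% (30.0 to 45.3%). These intervals overlapped, although the summed level of the pair was 759 CPM in Eed-/- against 23.9 CPM in wild-type. The miR-196 pair differed. MiR-196a-5p, counted as the mean of its loci, made up 84.8% (83.2 to 86.2%) of the counts of miR-196a-5p and miR-196b-5p in wild-type and 82.3% (80.9 to 83.6%) in Ezh2-/-. The share was 51.1% (50.5 to 51.7%) in Eed-/-, where both were higher than in wild-type, and 53.7% (37.4 to 69.3%) in Jarid2-/-, where both were lower.

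**Figure D3:**
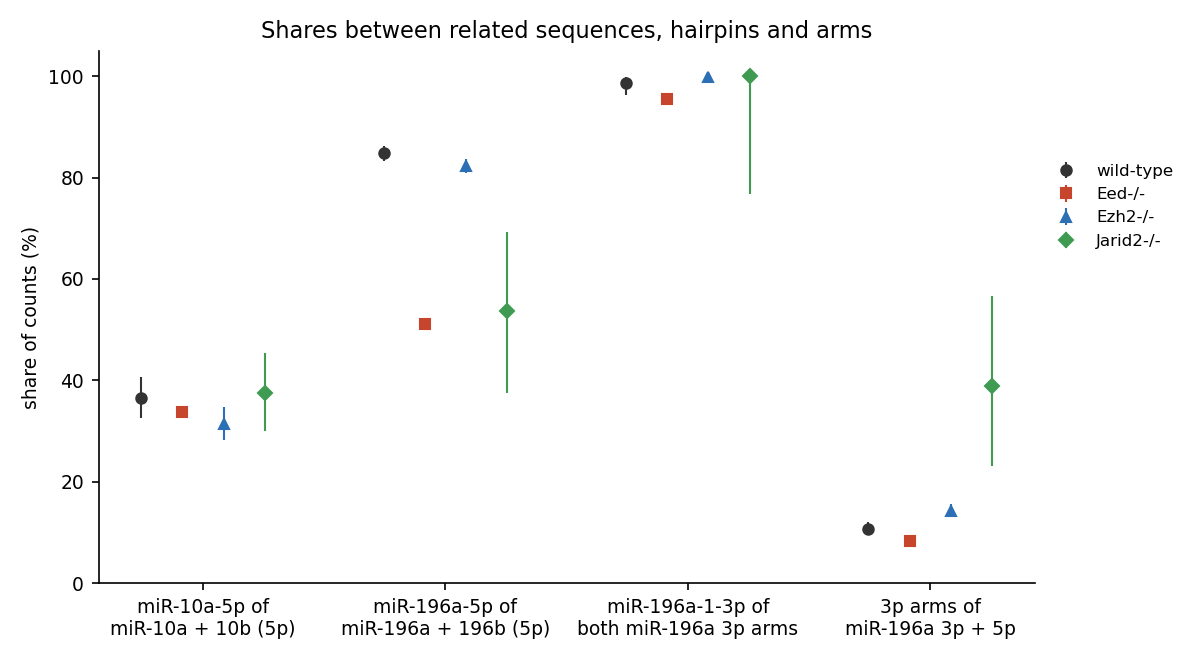
Shares of counts (%) in each genotype with Clopper-Pearson 95% intervals as bars: miR-10a-5p within the miR-10 5p pair, miR-196a-5p within the miR-196 5p pair, miR-196a-1-3p within the miR-196a 3p arms, and the 3p arms within the miR-196a 3p and 5p counts. MiR-196a-5p was counted as the mean of its loci. The first share lies between 31.5% and 37.4% in all genotypes, and the second splits into wild-type and Ezh2-/- near 80% and Eed-/- and Jarid2-/- near 50%.

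The 2 loci of miR-196a-5p differed by 5 counts in wild-type, by 47 in Eed-/-, by 5 in Ezh2-/- and by 3 in Jarid2-/-, so the 5p rows do not tell the hairpins apart. The hairpins are printed here from RefSeq (GRCm38.p6, plus strand), with both mature arms in capitals, because their 3p arms differ where their 5p arms do not.
Mir196a-1: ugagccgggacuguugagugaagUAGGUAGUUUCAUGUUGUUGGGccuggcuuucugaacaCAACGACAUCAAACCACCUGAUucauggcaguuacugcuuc
Mir196a-2: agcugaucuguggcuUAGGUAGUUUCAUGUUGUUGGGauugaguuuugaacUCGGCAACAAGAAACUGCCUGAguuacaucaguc

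The 3p arms of these hairpins, miR-196a-1-3p and miR-196a-2-3p, are the Hox cluster microRNAs outside the 9 names. MiR-196a-1-3p, from the HoxB cluster, had 228 counts in wild-type against 1190 in Eed-/-, 429 in Ezh2-/- and 14 in Jarid2-/- cells. MiR-196a-2-3p, from the HoxC cluster, had 3, 55, 1 and 0. Of the counts of both arms, the HoxB arm held 98.7% (96.3 to 99.7%) in wild-type and 95.6% (94.3 to 96.7%) in Eed-/-. Ezh2-/- had 99.8%, with a lower bound of 98.7%, and Jarid2-/- had 100%, with a lower bound of 76.8%. How stable each 3p arm is was not measured, so these shares describe the arms and not the 5p sequence.

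Both 3p arms were called higher in Eed-/-, where 17.5% of all assessed loci were. MiR-196a-1-3p was 2.94-fold higher (2.55 to 3.40). The ratio of 10.3 (3.35 to 51.5) for miR-196a-2-3p rests on 3 wild-type counts. This arm reached 10 counts in the Eed-/- column alone, and its log2 ratio with 1 CPM added, 1.03, was just past the threshold. In Ezh2-/- miR-196a-1-3p was 1.40-fold higher (1.19 to 1.65) and was not called. In Jarid2-/- it was 5.81-fold lower (3.39 to 10.8), against 34.3-fold and 29.9-fold for the 5p rows, and these intervals did not overlap. For the share of the 3p arms in miR-196a counts, the 5p arm was counted as the mean of its loci. On that count the 3p arms made up 38.9% (23.1 to 56.5%) in Jarid2-/- (14 of 36 counts), against 10.7% (9.44 to 12.1%) in wild-type. Eed-/- had 8.38% (7.93 to 8.83%) and Ezh2-/- had 14.3% (13.0 to 15.6%).

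Arm use differed between the miR-10 relatives. In Eed-/- the 3p arm was 181 of 21466 counts of miR-10b, or 0.843% (0.725 to 0.975%), and 1 of 10817 counts of miR-10a, or 0.00924% (0.000234 to 0.0515%). In wild-type the 2 shares, 4 of 365 and 1 of 209 counts, had overlapping intervals. The miR-10b share in Eed-/- lay within the wild-type interval of 0.299 to 2.78%. For miR-196b the 3p arm was 3.28% (2.98 to 3.59%) in Eed-/- and 3.30% (2.00 to 5.11%) in Ezh2-/-, against 1.14% (0.312 to 2.90%) in wild-type, so the intervals of Eed-/- and wild-type did not overlap. The 3p arm was the main arm of miR-615, whose 5p arm held 6.33% (4.31 to 8.91%) of counts in Eed-/-.

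MicroRNAs of other differentiated cells are given for comparison. Of the 9 loci of the neural microRNAs miR-124-3p, miR-9-5p and miR-9-3p, 6 were higher in Eed-/-, where 17.5% of all assessed loci were. These were the loci of miR-9, with miR-9-5p at 37.9 CPM against 2.44 in wild-type. Each of these names has 3 loci with nearly the same log2 ratio, so its loci are not separate measurements. MiR-124-3p, the abundant neuronal microRNA, was at 1014 CPM in wild-type and at 992 CPM in Eed-/-. Its level was 1599 CPM in Ezh2-/- and 15.4 CPM in Jarid2-/-, where its 3 loci were the 3 called lower. In Ezh2-/- 3 were called lower, the loci of miR-9-5p. Over all assessed loci 24.5% were lower in Ezh2-/- and 22.8% in Jarid2-/-. The median log2 ratio of the 9 loci was 2.15 for Eed-/-, 0.00 for Ezh2-/- and -0.45 for Jarid2-/-. Over all assessed loci it was 0.08, -0.44 and -0.17 in that order. The relatives of miR-10 outside the Hox clusters, miR-99a-5p, miR-99b-5p and miR-100-5p, had medians of -0.92, -1.23 and -1.69. Of these 3, 0 were higher in any mutant and 1, 2 and 3 were lower, where 15%, 24.5% and 22.8% of all assessed loci were lower.

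Fibroblast and smooth muscle microRNAs (miR-199a, miR-199b, miR-214, miR-143 and miR-145a, 12 loci, of which 10 were assessed) were lower in Eed-/- and Ezh2-/- than in wild-type. Their summed level was 1915 CPM in wild-type. It was 686 CPM in Eed-/-, 707 CPM in Ezh2-/- and 1109 CPM in Jarid2-/-, with 2 loci at 0 in Ezh2-/- and 1 in Jarid2-/-. Called lower were 7 of 10 in Eed-/-, 8 in Ezh2-/- and 3 in Jarid2-/-, where 15%, 24.5% and 22.8% of all assessed loci were lower, and 0 were called higher. The Jarid2-/- count was thus near that of all loci, and the list's median log2 ratio there, -0.20, was near the -0.17 of all loci and became 0.29 with the RPM denominators. The loci of miR-199a-3p and miR-199b-3p had nearly the same counts in each column, so they are not separate measurements. All of them were among the loci called lower in Eed-/- and Ezh2-/-, and each enters the summed level. The 4 blood cell loci summed to 358 CPM in wild-type, and to 24.4 CPM in Eed-/-, 259 CPM in Ezh2-/- and 97.3 CPM in Jarid2-/-. The part of these cell types in the Hox cluster values was not tested. In these bulk samples a smaller number of cells with a microRNA and a lower level per cell cannot be told apart.

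**Figure D4:**
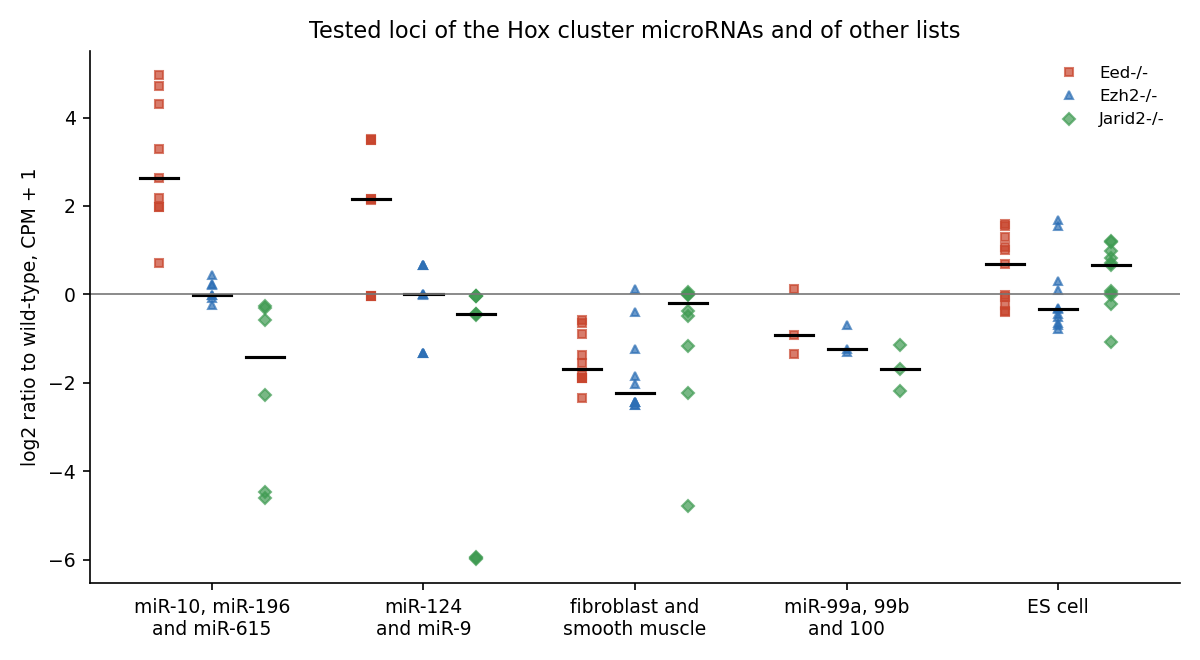
Log2 ratio to wild-type (CPM + 1) of each assessed locus in 5 lists, by mutant, with black bars as medians. Loci of the same microRNA can lie at the same height, and so do those of miR-199a-3p and miR-199b-3p, which had nearly the same counts. The Hox cluster list has its median at 2.64 for Eed-/-, at -0.00 for Ezh2-/- and at -1.42 for Jarid2-/-. The fibroblast and smooth muscle list lies mostly below 0 in Eed-/- and Ezh2-/-, and its median of -0.20 in Jarid2-/- is near the -0.17 of all assessed loci.

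Likeness to single members was measured as the Euclidean distance over the 3 log2 ratios to wild-type, for mature names with at least 50 counts in 1 column, and all 3 ratios share the wild-type column. The miR-10 5p arms lay 0.39 apart, and miR-196b-3p lay 1.52 from miR-10a-5p and 1.69 from miR-10b-5p. MiR-196a-5p and miR-196b-5p lay 3.27 apart. The names below were searched among the 713 that are not from the Hox cluster hairpins. Of these, the nearest to miR-10a-5p were miR-93-5p (distance 1.65), miR-324-3p (1.67) and miR-9-5p (1.75). Those nearest to miR-10b-5p were miR-93-5p (1.77), miR-206-3p (1.83) and miR-324-3p (1.88), of which miR-93-5p had log2 ratios of 4.91, -0.27 and 1.38 in Eed-/-, Ezh2-/- and Jarid2-/-. For miR-196b-5p they were miR-483-3p (1.59), an intronic microRNA of Igf2, miR-31-5p (1.92) and miR-483-5p (2.07). MiR-483-3p had log2 ratios of 2.86, -0.18 and -1.75 in Eed-/-, Ezh2-/- and Jarid2-/-, the last resting on 25 counts. Those of miR-31-5p were 2.61, 1.05 and -1.91 in the same order. The nearest names to miR-196a-5p were farther away, at 2.11 for miR-320-3p, 2.43 for miR-1968-5p and 2.55 for miR-124-3p, and these had log2 ratios of 0.09, 0.55 and -0.03 in Eed-/-, where miR-196a-5p stood at 1.98. Some of these places rest on few counts. MiR-206-3p had 18 in wild-type and 2 in Jarid2-/-, and miR-9-5p had 12 in Ezh2-/- and 20 in Jarid2-/-. In Jarid2-/- miR-1968-5p had 2 and miR-483-5p had 7.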

How the data were processed

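Small RNA of 18 to 40 nt was gel-selected, made into libraries with a SOLiD kit and sequenced on a SOLiD instrument, per the labels' protocols. Per the submitters' processing notes, adapters and alignment involved cutadapt and Bowtie with build mm9. Neither their versions nor how reads with several matches were treated is given in those sources. Each deposited table gives a read count and an RPM value (reads scaled to 1000000 reads of the library) for every mature locus of miRBase release 20, per the file headers. Dividing counts by the authors' RPM gave denominators of 246316316 (wild-type), 267248746 (Eed-/-), 243895676 (Ezh2-/-) and 62259756 (Jarid2-/-) reads.

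Columns were assigned to genotypes by name (HEED for Eed-/-, JUMONJI, an older name, for Jarid2-/-). CPM used the column total of microRNA counts, and 1 CPM was added before log2 ratios were taken. A locus needed 10 counts in either column to be assessed, and was called at 2-fold. Folds carry exact conditional binomial intervals, levels Poisson intervals and shares Clopper-Pearson intervals (scipy 1.17.1). Messenger RNA of Eed, Ezh2 and Jarid2 was not analysed here, so the genotypes were not checked. Alternatives were TMM (edgeR 4.0.16), median-ratio factors (DESeq2 1.42.0), the RPM denominators, a total without microRNAs of the miR-290 and Gtl2-Rian-Mirg clusters (each scaled to the same geometric mean), pseudocounts of 0.1 and 10 CPM, and minimums of 1 and 100 counts. A minimum of 10 counts in wild-type was added after the data were seen. All 9 names were described, and names of like pattern were the 3 nearest from outside the Hox cluster hairpins, per 5p member of the miR-10 and miR-196 families. Members, lists and rules were chosen with earlier results of these data known.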

Additional observations from a re-analysis of the deposited data

Results flagged for a closer look

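MiR-196a-5p and miR-196b-5p were past 2-fold in opposite directions in 2 mutants, higher in Eed-/- and lower in Jarid2-/- than in wild-type. The log2 ratio of Jarid2-/- to Eed-/- was -6.59 for miR-196a-5p at chromosome 11, -6.45 at chromosome 15 and -6.58 for miR-196b-5p. The difference was not tested, since each genotype had 1 column, and both contrasts with wild-type share the wild-type column. The Jarid2-/- values rest on 20, 23 and 19 counts.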

How the results depend on the processing

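No paired analysis was possible because each genotype had 1 column, and for the same reason no replicate could be left out. Of 372 recomputed log2 ratios of single members, 81 were labelled as moved from the main setting, and 0 of the called ones changed sign. This label does not match leaving the fold intervals given above. For Eed-/- against wild-type, miR-10b-3p was labelled as moved at 4.03 with 0.1 CPM added, within its fold interval. MiR-10a-5p was not so labelled at 4.58 with TMM, outside its fold interval. The summed member level had log2 ratios to wild-type of 3.11 in Eed-/-, 0.03 in Ezh2-/- and -2.91 in Jarid2-/-. In Eed-/- it was 2.98 with TMM, 2.89 with median-ratio factors, 3.82 with the RPM denominators, 3.55 with the miR-196a-5p loci averaged and 4.78 without miR-196a-5p. In Ezh2-/- it was 0.76, 0.55 and 0.47 with the 3 scalings and 0.17 without miR-196a-5p. In Jarid2-/- it was -2.41 with the RPM denominators, -2.31 with loci averaged and -0.87 without miR-196a-5p, which holds most of the wild-type counts. Among counts of called members, 1 was higher in Ezh2-/- against wild-type with 0.1 CPM added (0 with 1 CPM), and 5 were higher in Eed-/- against Ezh2-/- with 10 CPM added (8 with 1 CPM). For Eed-/- against wild-type, 9 were higher with 0.1 CPM added and 6 with 10 CPM (8 with 1 CPM). With 10 CPM, miR-10b-3p and miR-615-3p fell below 2-fold, at log2 ratios of 0.49 and 0.92. Over all loci, 10 CPM added left 218 calls for Eed-/-, 186 for Ezh2-/- and 240 for Jarid2-/- against wild-type, 277 for Eed-/- against Ezh2-/-, and 155 and 248 for Jarid2-/- against Eed-/- and Ezh2-/-. With 0.1 CPM added, 427 loci were called for Jarid2-/- against Eed-/-. Asking for 10 counts in the wild-type column, an alternative chosen after seeing the data, left 6 members higher in Eed-/-, 0 called in Ezh2-/- and 3 lower in Jarid2-/-. A larger added value holds low loci below the threshold by construction. The Jarid2-/- column, the shallowest, limits what can be said of the low arms.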
